A study of Homo sapiens with 6 samples.

Results

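The UACC-62-only bins were 3239 stretches of 20 bp that held more than 30 IP reads in both UACC-62 replicates and were absent from the SK-Mel-103 peak list. They made up 6.6% of the 49106 bins above 30 IP reads in both UACC-62 replicates, and the other 45867 of these were listed in SK-Mel-103 as well. The members were chosen by their IP read counts, so their number and height are given as a description without a test. In all, 1589987 bins were listed in at least 1 sample and 107924 exceeded 30 IP reads in at least 1.

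CELF1, called CUGBP1 in the sample labels, was immunoprecipitated from lysates of SK-Mel-103 and UACC-62, both established human melanoma lines, and the co-purified RNA (IP) was sequenced along with RNA of the same lysate (input). Neither line carried a transgene or a drug treatment according to the labels. The series has 6 samples, and peak lists of 3 IP samples were analysed, 1 from SK-Mel-103 (replicate 1) and 2 from UACC-62 (replicates 1 and 3). Each list holds the bins that passed the authors' peak calling against the matched input, with 10958459 IP reads in the listed bins of SK-Mel-103 and 11333805 and 14436573 in those of UACC-62 (replicates 1 and 3). With 1 sample of SK-Mel-103, no test between the lines was possible.

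CELF1 is an RNA binding protein of the CELF family that recognises GU-rich stretches through its RNA recognition motifs. In the cytoplasm it binds mainly 3′ UTRs and is known to affect mRNA decay and translation, and in the nucleus it takes part in alternative splicing. A sequenced IP reflects both how much of a transcript a cell contains and how much of it is bound, which is why each bin is read beside its input.

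To show what the members look like at the level of sequence, the bin with the highest lower IP count is given for each of 10 genes rich in UACC-62-only bins, 5′ to 3′ on the transcript strand of GRCh37, with the triplet TGT (UGU in the RNA) in capitals. All lie in 3′ UTRs except that of RMEL3, which lies in an exon of this non-coding gene.
SOX6, chr11:15992161-15992180, minus strand: aTGTtggttggggattagaa
SESN3, chr11:94905721-94905740, minus strand: gcatgctactgaaatgccaa
NFIA, chr1:61926881-61926900, plus strand: cttaatggacaaTGTtcaag
TRIB2, chr2:12882421-12882440, plus strand: tttgggtaggtgacacgtgg
SLC26A2, chr5:149362581-149362600, plus strand: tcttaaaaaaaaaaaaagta
SPRY4, chr5:141692221-141692240, minus strand: gtggtatttTGTtttcccct
RMEL3, chr5:56830041-56830060, plus strand: ttaatactcgatagtctcat
ITGB3, chr17:45389461-45389480, plus strand: acctttctcaatgaaagtct
XYLT1, chr16:17197801-17197820, minus strand: tctcttcctctctggctctc
GLCCI1, chr7:8126841-8126860, plus strand: gcattcaatcctaggagaat
The triplet was present in 3 of these 10 bins. A repeated GU stretch, TGTGT, marks a smaller group. As examples, 4 bins in 3′ UTRs of different genes are shown with TGTGT in capitals, without a ranking over all members.
TRIB2, chr2:12881601-12881620, plus strand: gtttTGTGTcaattggttcg
PTPRJ, chr11:48189921-48189940, plus strand: aggttggcattttaTGTGTc
HDDC2, chr6:125597221-125597240, minus strand: attgtatTGTGTtttgccat
SLC26A2, chr5:149366901-149366920, plus strand: TGTGTGTtgagatttagagg
The TRIB2 bin had 359 and 442 IP reads in replicates 1 and 3 with 59 and 45 input reads, and that of SLC26A2 had 153 and 188 IP reads with 4 and 10 input reads.

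Short GU motifs were about as frequent in the UACC-62-only bins as in the bins that SK-Mel-103 listed too. On the transcript strand, TGT was found in 35.9% of the members (Wilson 95% interval 34.2 to 37.5) and in 37.6% of the shared bins (37.2 to 38.1). TGTGT was found in 4.01% and 3.94%, GTGT in 8.37% and 8.19%, TGTT in 13.1% and 14.3%, CTG in 34.7% and 33.3%, and TTTT in 16.3% and 18.7%, respectively. TGT occurred in 37.5% of all 49106 bins. The mean GC content was 41.4% in the members and 40.6% in the shared bins. TGTGT contains TGT and GTGT, so the shares are not separate counts. These intervals cover counting error alone, since neighbouring bins share a transcript and often the same RNA fragments.

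The absence of a bin from the SK-Mel-103 list sets a limit on its reads that depends on the input. In that list the lowest IP count of any bin was 4 where the input had 1 to 29 reads and 6 where it had none. From 300 input reads the lowest listed count was 14, and from 1000 it was 110. The p-value of a bin depended only on its input and IP reads and fell with the IP reads, and 4 was the lowest listed count at each single input value from 1 to 29. A member with such an input in SK-Mel-103 thus had fewer than 4 IP reads there, whereas in an input-rich bin far more reads could go unlisted. The SK-Mel-103 input of an unlisted bin is not part of the list.

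Bins of this kind were far scarcer when the same rule was applied with a UACC-62 replicate as the missing sample. Of 40029 bins above 30 IP reads in SK-Mel-103 and UACC-62 replicate 3, 123 or 0.307% were not listed in UACC-62 replicate 1. Of 32846 bins above 30 IP reads in SK-Mel-103 and UACC-62 replicate 1, 81 or 0.247% were not listed in UACC-62 replicate 3. The comparison mixes lines within each pair and was not tested.

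Most UACC-62-only bins lay near the read threshold. Their IP counts ranged from 31 to 12727 in replicate 1, with a median of 52, and from 31 to 23183 in replicate 3, with a median of 59. The shared bins had medians of 59 and 81. Just inside the threshold, 187 members had a lower IP count of 31, and just outside it, 188 bins absent from SK-Mel-103 had a lower count of 30. On the other side of the rule, SK-Mel-103 listed 1204 of the shared bins with only 4 to 6 IP reads and 15025 with up to 30.

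The input of the UACC-62-only bins was lower than that of the shared bins. The median input was 15 and 12 reads in replicates 1 and 3, against 25 and 21 reads in the shared bins. Log2 IP over input, computed from reads plus 1 divided by the total of listed bins, had a median of 1.76 in replicate 1 and 1.68 in replicate 3, against 1.32 and 1.38. This value exceeded 0 in both replicates for 78.0% of the members and 71.4% of the shared bins. It was below 0 in both for 547 members (16.9%) and for 20.6% of the shared bins. No input read in either replicate was found for 40 members (1.23%, 0.908 to 1.68) and for 0.353% of the shared bins (0.303 to 0.412). The IP counts chose the members, so these differences are not independent of the rule.

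**Figure D1:**
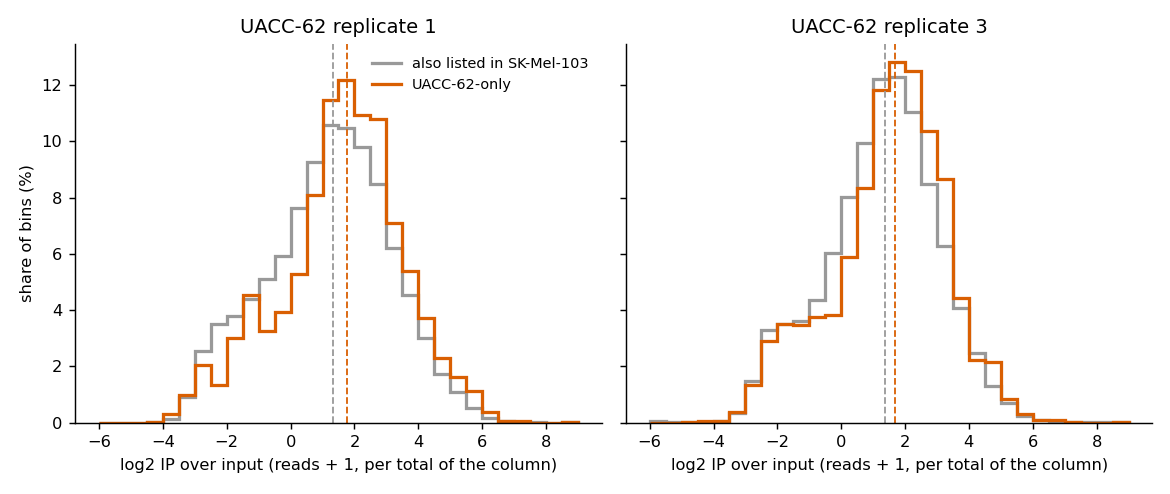
Distribution of log2 IP over input (x axis, reads plus 1 divided by the column total) as a share of bins in percent (y axis) for the 3239 UACC-62-only bins (orange) and the 45867 bins also listed in SK-Mel-103 (grey), in each UACC-62 replicate. Dashed lines mark the medians, 1.76 and 1.68 for the UACC-62-only bins and 1.32 and 1.38 for the shared bins, and both sets have a shoulder below 0.

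UACC-62-only bins lay predominantly in 3′ UTRs, as did the other bins of UACC-62. There were 2452 members in 3′ UTRs (75.7%, 74.2 to 77.1), compared with 83.7% of the shared bins (83.4 to 84.1). A further 309 lay in coding regions (9.54% against 8.12%), 10 in 5′ UTRs and 70 in other sequence of coding genes, called intronic here. This class lies outside the exons of coding transcripts and can include exons of non-coding transcripts or of non-coding genes within the gene. Exons of non-coding genes held 180 members (5.56%, 4.82 to 6.40) against 1.98% of the shared bins, but 136 of the 180 lay in RMEL3 and 1 other gene, and without these 2 genes the share was 1.42% (1.06 to 1.90) against 1.98%. Sequence without an annotated gene held 153 (4.72% against 2.84%). The remainder comprised 42 bins in introns of non-coding genes and 23 antisense to coding genes. When each pair of a coding gene and region was counted once, 76.2% of 441 pairs with a member and 72.2% of 2923 pairs with a shared bin were 3′ UTRs, so the order of both sets turned. The 3′ UTR exons that held members had a median length of 3748 nt, with 3266 nt for the shared bins, each exon counted once per bin.

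**Figure D2:**
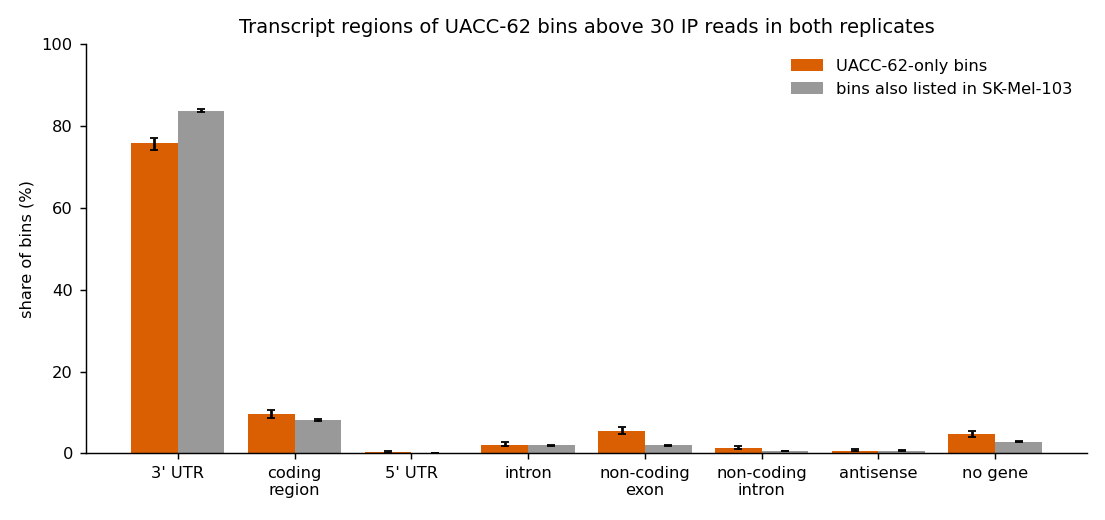
Share of bins (y axis, percent) in each transcript region for UACC-62-only bins (orange) and for the bins also listed in SK-Mel-103 (grey), with Wilson 95% intervals as error bars. The 3′ UTR holds 75.7% and 83.7%, and exons of non-coding genes hold 5.56% and 1.98%.

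Members were mostly short and scattered. The 3239 bins formed 2176 runs of adjacent bins, of which 1665 were a single bin. The longest run spanned 21 bins or 420 bp in the last part of RMEL3 (chr5:56829181-56829600, plus strand). The nearest bin listed in SK-Mel-103 on the same strand was the adjacent one for 1013 members (31.3%) and lay more than 10 kb away for 948 (29.3%). For the remaining members this distance was 40 to 100 bp in 649, over 100 bp to 1 kb in 325, and over 1 kb to 10 kb in 304. The members thus included both isolated gaps in a transcript seen in both lines and entire transcripts missing from the SK-Mel-103 list.

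At least 1 UACC-62-only bin was found in 391 of the 2371 coding genes with a UACC-62 bin above 30 in both replicates (16.5%). In 81 of the 2371 (3.42%), every such bin was a member. The members were unevenly spread, with 193 coding genes holding 1 each and 60 holding 10 or more. The 20 genes with the most members, coding or not, held 1532 of the bins (47.3%). Of the 391 coding genes, 41 had no SK-Mel-103 bin anywhere along the gene (536 members), 161 had bins there but none above 30 IP reads (1731 members), and 189 had SK-Mel-103 bins above 30 (601 members). Bins in overlapping genes count for each gene.

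To describe these groups gene by gene, the IP and input reads of all listed exon bins of a gene were summed. Sums are given per 1000000 reads in the listed bins of the sample (RPM). In the 161 genes whose SK-Mel-103 bins stayed at or below 30 reads, the median IP level was 11.9 RPM in SK-Mel-103 and 196 and 155 in UACC-62 replicates 1 and 3, and the median input level was 5.20, 131 and 112. In the 189 genes with higher SK-Mel-103 bins, the median IP level was 239, 429 and 430, and the median input level 214, 374 and 362. Of the 60 coding genes with 10 or more members, 59 were lower in SK-Mel-103 than in both UACC-62 replicates in IP, and the same 59 were lower in input. The exception was CT45A4, whose members all fell in the intronic class. For the 42 of them with an SK-Mel-103 exon bin, the log2 ratio of the UACC-62 mean to SK-Mel-103 had a median of 4.20 in IP, and for the 39 with SK-Mel-103 input reads it had a median of 4.40 in input.

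Both the gene groups and the genes with many members were chosen through bins low or unlisted in SK-Mel-103. Their lower levels there thus follow in large part from this choice. Input is known only inside listed bins, and a bin that fails in the IP takes its input reads out of the sum. Less of a transcript and less binding of CELF1 to it can therefore not be told apart here, nor can fewer cells that express a gene and less RNA per cell.

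**Figure D3:**
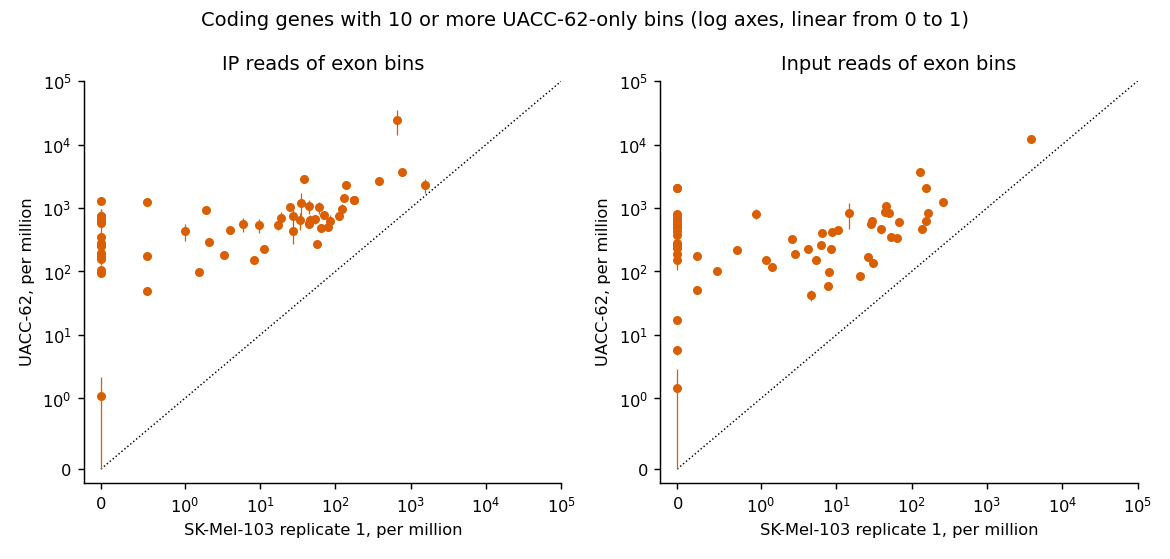
IP (left) and input (right) reads of listed exon bins in RPM for the 60 coding genes with 10 or more UACC-62-only bins, SK-Mel-103 replicate 1 on the x axis and UACC-62 on the y axis (points, mean of 2 replicates; lines, both replicates; log axes, linear from 0 to 1). All genes but CT45A4 lie above the dotted line of equality with both replicates, in IP as well as in input. The genes were chosen through bins unlisted in SK-Mel-103, so this direction follows in large part from the choice.

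The gene with the most members encodes a transcription factor. SOX6, a SoxD factor of neural crest and cartilage development, held 171 members, all in its 3′ UTR, and no other UACC-62 bin above 30. Its IP level was 0 RPM in SK-Mel-103, 1391 in UACC-62 replicate 1 and 1215 in replicate 3, on an input of 237 and 247 in UACC-62. Member counts ran from 31 to 290 IP reads in replicate 1 and from 31 to 265 in replicate 3, with a median of 8 input reads in each. SK-Mel-103 listed no exon bin of SOX6. Its level of 0 RPM there is a sum over listed bins and follows from the choice of the gene. SOX5, the related SoxD factor, held 45 members among 65 bins, with IP levels of 17.3, 613 and 453 in the same order of samples. NFIA, a nuclear factor I protein, held 102 of 104 bins as members, with IP levels of 1.92, 889 and 950. SK-Mel-103 listed 4 exon bins of NFIA, none above 7 reads.

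TRIB2, SPRY4 and PTPRJ encode proteins of intracellular signalling. TRIB2, a Tribbles pseudokinase, held 90 members among 136 bins, of which 49 were in the 3′ UTR and 35 in the coding region. Its IP level was 38.9 RPM in SK-Mel-103, 3159 in UACC-62 replicate 1 and 2584 in replicate 3, and its input level was 6.51, 434 and 368. Median log2 IP over input of its members was 2.54 and 2.85, so IP exceeded input clearly in both replicates. SPRY4, an inhibitor of receptor tyrosine kinase signalling, held 85 members among 128 bins, with IP levels of 24.9, 1031 and 1029. PTPRJ, a receptor tyrosine phosphatase, held 56 among 76, with IP levels of 18.7, 851 and 558.

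SESN3, a sestrin of the stress response that restrains mTORC1, held 130 of 131 bins as members, 115 in the 3′ UTR and 15 in the coding region. SK-Mel-103 listed a single exon bin of SESN3 with 6 IP reads, and the IP level was 0.548, 1113 and 1367. GLCCI1, named for its induction by glucocorticoids, held 63 members among 76 bins. Its IP level was 9.76, 679 and 402, and its members had a median input of only 4 and 3 reads, with median log2 IP over input of 3.91 and 3.02.

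ITGB3, TIMP3 and XYLT1 encode proteins that act in adhesion or in the extracellular matrix. ITGB3, the beta 3 integrin subunit, held 77 members among 124 bins, and TIMP3, an inhibitor of matrix metalloproteinases, held 63 among 112. IP levels were 44.1, 1342 and 818 for ITGB3. For TIMP3 they were 34.8, 1748 and 684, a difference of 2.56-fold between the UACC-62 replicates. XYLT1, the xylosyltransferase that starts glycosaminoglycan chains, held 69 members and no other bin, with IP levels of 0, 731 and 637.

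SLC26A2, a sulphate transporter, was listed in SK-Mel-103 with many bins at a low level. It held 88 members among 228 UACC-62 bins above 30. SK-Mel-103 listed 155 of its exon bins, against 377 and 379 in UACC-62 replicates 1 and 3, only 2 of them above 30 and the highest with 37 IP reads. IP levels were 137, 2307 and 2381, and input levels 49.8, 821 and 876. Members fell between bins that SK-Mel-103 listed with a few reads. SLC7A2, a cationic amino acid transporter, held 61 members among 125 bins with IP levels of 60.3, 1252 and 793. SPTBN1, a beta spectrin of the membrane skeleton, held 53 among 106, with IP levels of 178, 1391 and 1323 and input levels of 258, 1362 and 1142. Median log2 IP over input of the SPTBN1 members was 1.96 and 2.32.

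**Figure D4:**
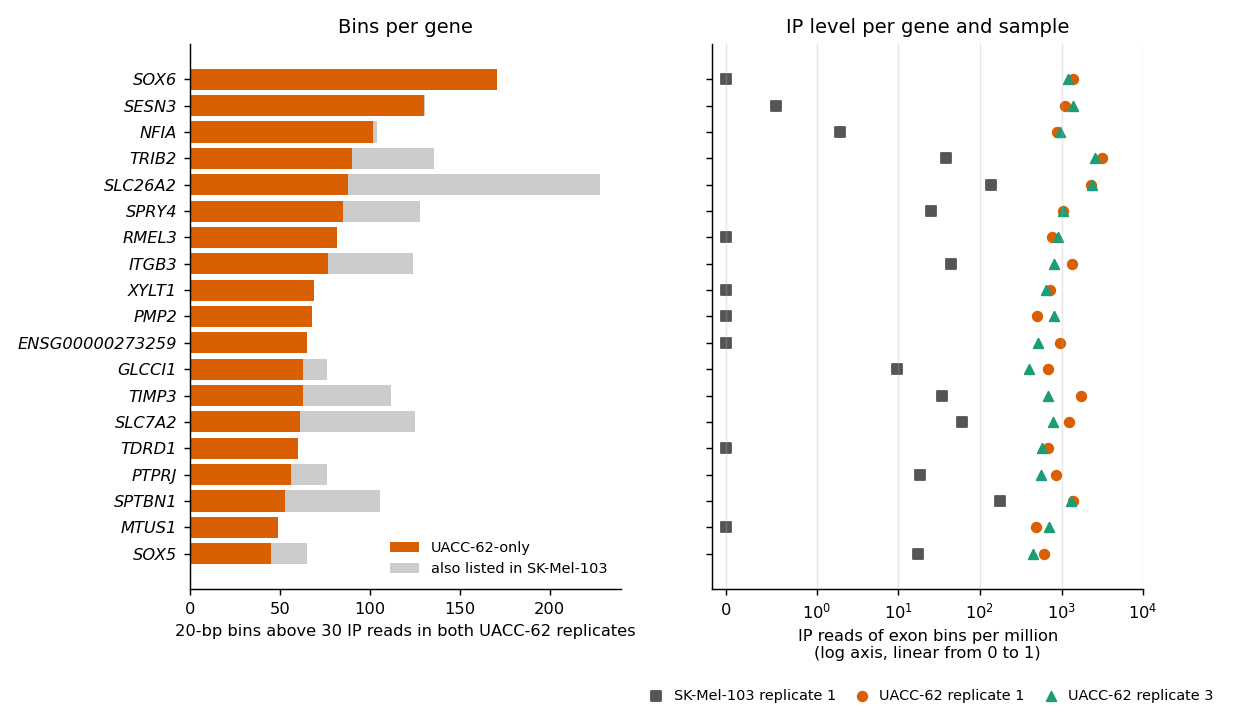
Left, number of 20-bp bins above 30 IP reads in both UACC-62 replicates (x axis) in the genes with the most UACC-62-only bins, split into UACC-62-only bins (orange) and bins also listed in SK-Mel-103 (grey). Right, IP reads of listed exon bins in RPM in each of the 3 samples (log axis, linear from 0 to 1), where SK-Mel-103 lies below both UACC-62 replicates for every gene shown, from 0 for SOX6 to 178 for SPTBN1. The genes were chosen for bins unlisted in SK-Mel-103, so this order follows in large part from the choice.

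Other genes without any SK-Mel-103 exon bin had ties to glia, germ line and microtubules. PMP2, a fatty acid binding protein of peripheral myelin, held 68 members, and its IP level was 505 and 820 in UACC-62 replicates 1 and 3. TDRD1, a Tudor domain protein of the germ line, held 60 members with 678 and 570. MTUS1, a microtubule-associated protein, held 49 with 485 and 695. All UACC-62 bins above 30 of these 3 genes were members. PCDH7, a protocadherin, likewise held 44 of 44 bins as members, but its IP level of 906 in replicate 1 and 293 in replicate 3 differed by 3.09-fold. Of the 60 coding genes with 10 or more members, 5 differed by more than 2-fold between the replicates.

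Profiles along the transcript showed 3 different situations. In SOX6, SK-Mel-103 was unlisted throughout the 3′ UTR while both UACC-62 replicates had members along its length. In SLC26A2, SK-Mel-103 followed at a low level and members were the gaps. In EEF1A1, described with the input-rich members, SK-Mel-103 bins with many IP reads stood beside unlisted ones.

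**Figure D5:**
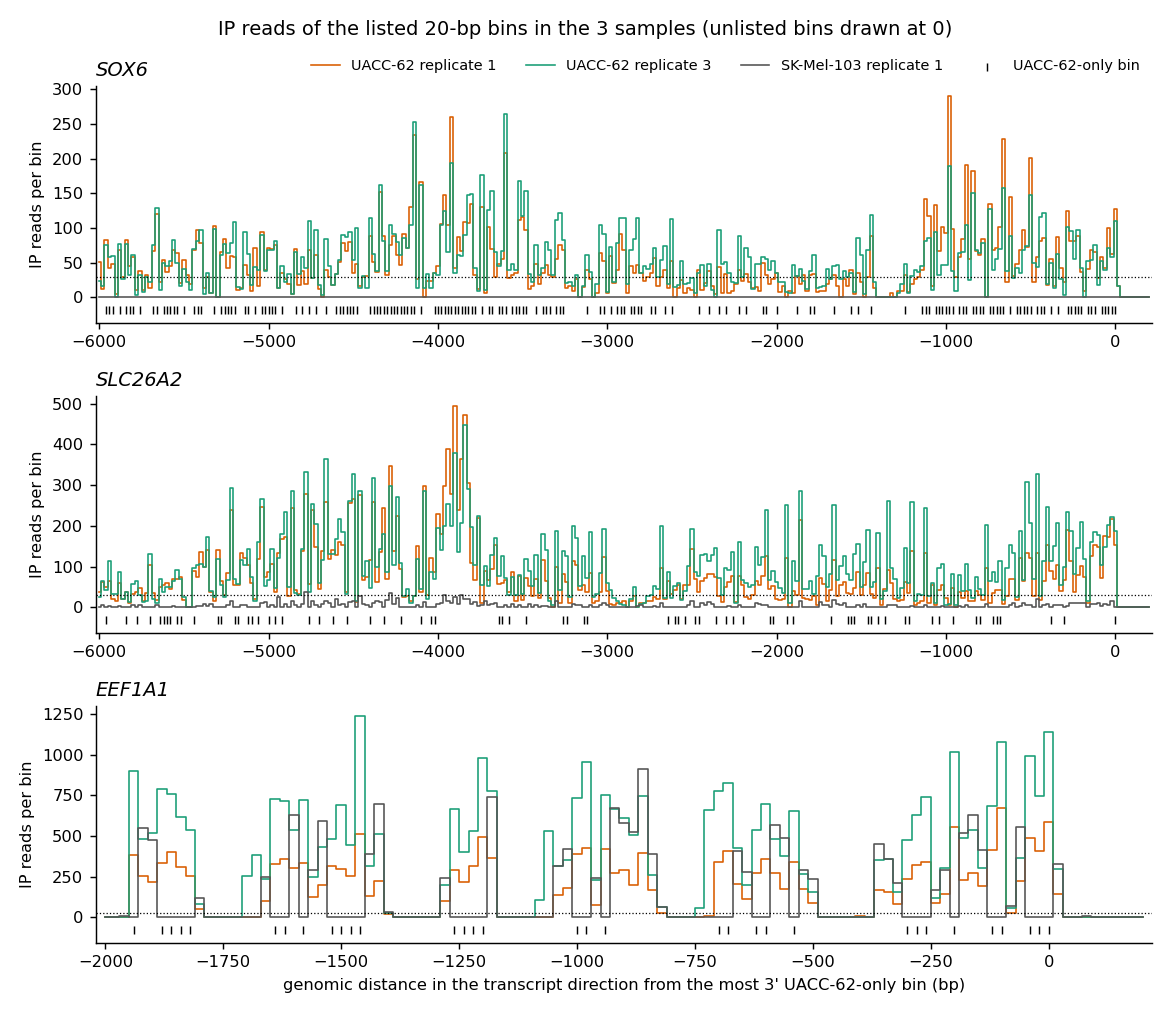
IP reads per 20-bp bin (y axis) along the 3′ part of SOX6, SLC26A2 and EEF1A1 in UACC-62 replicate 1 (orange), UACC-62 replicate 3 (green) and SK-Mel-103 replicate 1 (grey), by genomic distance from the most 3′ UACC-62-only bin (x axis, bp), with unlisted bins drawn at 0, ticks for UACC-62-only bins and a dotted line at 30 reads. SK-Mel-103 has no bin in the part of SOX6 shown, stays at or below 37 reads in SLC26A2, and reaches 910 reads in EEF1A1 between unlisted bins.

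In all, 28 genes other than coding genes held members, and 2 of them held most of the exonic ones. RMEL3, a long non-coding RNA (lncRNA) known for its expression in melanoma, held 82 members, 81 of them in exons. Its IP level was 0, 756 and 913 RPM, with median log2 IP over input of 2.45 and 2.79. Another 26 members without annotation began 10 bp beyond the 3′ end of RMEL3 and reached to chr5:56831160, with medians of 117 and 136.5 IP reads. SAMMSON, a lncRNA of the melanocyte lineage next to MITF, held 12 members, all in introns of the annotated gene, with 31 to 55 IP reads in replicate 1 and 41 to 100 in replicate 3. LHFPL3-AS1 held 21 members with median log2 IP over input of -1.09 and -1.11, so this RNA had less IP than input. A further X-linked lncRNA is counted but not described.

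LINC00632 held 6 members among 22 bins, and its IP level was 31.7, 164 and 250 RPM on an input of at most 9.21 in any sample. GARS1-DT held 5 members among 7 bins. LINC01399 held 11 members in its introns, where 144 bins passed in UACC-62 altogether. PLXNB3-AS1 held 3 members, again in introns.

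Intronic members of coding genes, as defined above, were concentrated in a few genes. Of the 70, 23 lay in ENSG00000286015, 10 in CT45A4, 8 in FARP2, 4 in IL1RAP, and 3 each in FNBP1 and QDPR. CT45A4 belongs to a family of near-identical copies on the X chromosome, between which 40-nt reads with up to 20 alignments allowed cannot be assigned with certainty. In FARP2, SK-Mel-103 listed 123 exon bins, the highest with 18 IP reads.

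Beyond RMEL3, unannotated members gathered in several stretches. On the plus strand of the X chromosome, 42 members lay between chrX:75399101 and chrX:75414120, beginning 952 bp from PBDC1, with median IP of 42.5 and 43 reads and median input of 3 and 1. On the minus strand of chromosome 12, 24 members lay between chr12:24898481 and chr12:24902380, and the nearest gene on that strand was BCAT1 at 60578 bp. Near ARHGAP31, 11 members began 180 bp from the annotated gene (chr3:119139741-119147540), with median input of 0 and 1. These stretches had low input like most members. Antisense members included 7 in KIAA2026 between chr9:5911121 and chr9:5912100, with 38 to 84 IP reads in replicate 1. On the mitochondrial genome, 12 of 210 bins were members.

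Genes of the melanocyte lineage had the highest share of members among the lists. Of 26 such genes, 7 had UACC-62 bins above 30 in both replicates, and 6 of these had members, which comprised 76 of their 83 bins (91.6%). GPNMB, a glycoprotein of melanosomes, held 29 members, and S100B, the calcium-binding S100 protein used as a melanoma marker, held 15. None of the UACC-62 bins above 30 of GPNMB and S100B was listed in SK-Mel-103. MITF, the master regulator of the lineage, PAX3, its upstream factor, and TYR, the tyrosinase of melanin synthesis, held 1 each. They had 2, 6 and 1 UACC-62 bins above 30, so most PAX3 bins were also listed in SK-Mel-103. Most of the 76 members lay in GPNMB, S100B and a gene not reported here, so the share of bins rests largely on these genes.

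GPNMB, S100B, MITF and TYR had more input than IP in UACC-62, whereas PAX3 had less. The IP level of GPNMB was 344 and 212 RPM in UACC-62 replicates 1 and 3, on an input of 915 and 721. For S100B the IP level was 93.7 and 118 with an input of 462 and 419. SK-Mel-103 listed no bin of either gene. MITF had IP levels of 4.38, 142 and 155, with input levels of 2.13, 594 and 562. PAX3 had IP levels of 17.8, 116 and 165 on an input of only 4.61, 14.9 and 19.1.

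Other melanocyte genes were seen only in lower bins or not at all. DCT, SLC45A2, SLC24A5 and EDNRB were listed in both UACC-62 replicates and not in SK-Mel-103, but had no bin above 30 in both. MLANA, the Melan-A antigen, was listed with 65 and 92 bins in UACC-62 and with 2 in SK-Mel-103. PMEL and TYRP1, a pair of structural and enzymatic melanosome proteins, were listed in none of the 3 samples. SOX10, which marks the neural crest lineage, was listed with 75 bins in SK-Mel-103 and had no member. The UACC-62 list therefore held part of the melanocyte markers and lacked others.

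Matrix and integrin genes and RAS pathway genes followed. Of 12 matrix and integrin genes with a bin above 30, 6 had members (LAMA4, LAMC1, ITGAV, ITGB3, ITGB8 and TIMP3), and 157 of 603 bins were members (26.0%). Most of these lay in ITGB3 (77) and TIMP3 (63). Of 11 RAS, MAPK and PI3K genes, 4 had members (DUSP4, SPRY4, SPRED1 and ETV5), and 89 of 395 bins were members (22.5%). SPRY4 held 85 of the 89. Among 12 genes of the dedifferentiated, invasive state, VIM and SERPINE2 had members (16.7% of these genes, near the 16.5% of all coding genes). These were 19 of 516 bins (3.68%, below the 6.6% over all bins). SERPINE2, a secreted protease inhibitor, held 14 among 88 bins, and its IP level was 654 in SK-Mel-103 and 34945 and 14343 in UACC-62, on an input of 128, 3825 and 3487.

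The lists above and below are read against the 6.6% of all bins and the 16.5% of coding genes that were or held members. Of 17 cell cycle and replication genes with a bin above 30, UBE2C, a ubiquitin-conjugating enzyme of mitosis, had the single member, 1 of 807 bins (0.124%). Of 25 RNA binding and splicing genes, HNRNPA1 had 1 member and CPEB2, a cytoplasmic polyadenylation element binding protein, had 38, together 39 of 944 bins (4.13%). Glycolysis and hypoxia genes had 4 members of 498 bins (0.803%), in 4 of 16 genes with a bin above 30 (25%, HK2, GAPDH, ENO1 and NDRG1). Lipid and lysosome genes had 3 of 133 bins (2.26%), in 3 of 10 genes (30%, LAMP2, ASAH1 and FABP7). Cancer-testis antigens had 9 of 52 bins (17.3%), in 4 of 8 genes (50%). Of these 9, 6 lay in MAGEA4 and 1 each in MAGED1, MAGED2 and CTAG2. No member lay in antigen presentation genes, which had 27 bins above 30, or in the keratinocyte markers, which had 1, and these numbers are too small to set against the share over all bins. Fibroblast, leukocyte and endothelial markers had no UACC-62 bin above 30 in both replicates.

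Some members lay in abundant transcripts with a deep input, as did some shared bins. More than 300 input reads in both replicates were found for 126 members (3.89%) in 48 genes, against 3.17% of the shared bins. Of these 126 members, 33 lay in 24 ribosomal protein genes. Log2 IP over input was below 0 in both replicates for 124 of the 126, with medians of -2.84 and -2.38. These members were chosen by a deep input, which lowers the ratio, so its sign follows in large part from the choice. Of the 32 ribosomal protein and translation factor genes listed, 31 had UACC-62 bins above 30. Members were found in 14 of these (45.2%, against 16.5% of all coding genes). They comprised 53 of 591 bins (8.97%, against 6.6% over all bins). EEF1A1, the translation elongation factor, held 34 of the 53, so the share of bins rests largely on this gene.

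The surroundings of the input-rich members in SK-Mel-103 differed from gene to gene. Of the 126, 94 had an SK-Mel-103 bin within 100 bp, and members in SERPINA3, LGALS3, MGP and IL13RA2 were among those without one. For 83 of the 126 input-rich members, SK-Mel-103 listed the adjacent bin, with a median of 313 IP reads and 600 input reads, and 82 of these adjacent bins exceeded 30 IP reads. For the other 930 members with a listed adjacent bin, its median was 9 IP reads and 2 input reads, and 91 exceeded 30. EEF1A1 members had adjacent SK-Mel-103 bins with 69 to 739 IP reads in 25 of 34 cases. The IP level of EEF1A1 was 1548 RPM in SK-Mel-103 and 1748 and 2863 in UACC-62.

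Many of the highest members by their lower IP count had a deep input as well. A member assigned to the 5′ UTR of WDR74 (chr11:62609121-62609140, minus strand) had 10174 and 4075 IP reads and 5252 and 3994 input reads. Its log2 IP over input was 0.80 and -0.67. Coding genes came before non-coding genes in the assignment, so a non-coding RNA at this site would go unnamed. RMRP, the RNA component of the mitochondrial RNA processing endoribonuclease, had 1 member with 2848 and 3281 IP reads and 11188 and 2085 input reads. ENSG00000259001, GAPDH, VIM, HSPA8, EEF1A1, ACTB and SERPINA3 followed, all with log2 IP over input below 0 in both replicates. TRIB2, by contrast, had 782 and 673 IP reads on 32 and 43 input reads, a log2 IP over input of 4.41 and 3.24. A single bin antisense to FAM20B (chr1:178995241-178995260) had the most IP reads of any member, 12727 and 23183, with 1312 and 1290 input reads and a log2 IP over input of 3.12 and 3.47. An unannotated bin on chromosome 21 (chr21:34864041-34864060, plus strand) had 742 and 632 IP reads and no input read in either replicate.

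SERPINA3, a secreted serpin, combined a deep input in UACC-62 with the absence of listed SK-Mel-103 exon bins. It held 27 members, which also counted for ENSG00000273259, an overlapping coding gene on the same strand with 65. SK-Mel-103 listed no exon bin of either. The IP level of SERPINA3 was 978 and 517 RPM in UACC-62 replicates 1 and 3, on an input of 2410 and 1780. Its median log2 IP over input was -1.25 and -1.66, and the same sign held for GPNMB and S100B. Among the 60 coding genes with 10 or more members, 43 had IP over input above 0 in both replicates and 17 below 0 in both.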

How the data were processed

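RIP-Seq peak lists of 3 IP samples were analysed, and input samples entered only through a column of these lists. Groups and replicate numbers followed the sample titles. Reads were aligned to GRCh37 with TopHat2 2.0.4 and Bowtie 0.12.7 per the submitters' processing notes, while the methods of the study name later versions of both. Piranha was run in bins of 20 bp with the input as covariate. As deposited, each bin carries its count of IP reads as a whole number without normalization. The p-value deposited by the authors was used to check the threshold of 0.05, to set the limit on unlisted SK-Mel-103 bins, and for the alternative of at most 0.01. The ratio deposited by the authors is the covariate, whose smallest step equals 1 input read, so that input reads could be recovered, with 0.01 as the code for no input.

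Transcript strand was taken as the reverse of the listed strand, and bin centres were assigned to GENCODE version 44 mapped to GRCh37. The order was 3′ UTR, coding region, 5′ UTR, other sequence of coding genes (intronic), then exons and introns of non-coding genes. All last bin ends lay within the lengths of the reference chromosomes. Sequences were read from the GRCh37 genome. Log2 IP over input used a pseudocount of 1 read, and levels were divided by the reads in the listed bins, whose number is the only depth known. Shares carry Wilson 95% intervals.

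Named were the 20 genes with the most members, the 10 genes with the highest member by the lower IP count, genes of the lists with a member, and the leading genes of non-coding and intronic members. HDDC2, PCDH7, FAM20B, KIAA2026, genes near unannotated stretches and listed genes without members were added after their values were seen. Members and lists were chosen with earlier results of these data known. One gene of the melanocyte list is counted but not reported here. No test was run. Alternatives covered read and p thresholds, the SK-Mel-103 requirement, strand, region order, pseudocount, scaling and single replicates. On simulated lists, all 200 planted members and 300 of 300 3′ UTR positions were found. The positions came from the same annotation, so this checks the code and not the choice of strand or regions. Software comprised Python 3.11.15, numpy 2.4.6, pandas 2.3.3 and scipy 1.17.1.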

Additional observations from a re-analysis of the deposited data

How the results depend on the processing

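The 3239 UACC-62-only bins in 391 coding genes fell to 1365 bins in 171 genes above 50 IP reads and to 405 in 77 above 100, with 77.3% and 70.6% in 3′ UTRs and 0.733% and 0.494% without input in both replicates. Without any SK-Mel-103 bin within 100 bp they were 1577 in 114 genes (72.5% in 3′ UTRs). With bins of up to 30 SK-Mel-103 reads allowed they were 18264 in 1538 genes (81.8% in 3′ UTRs, 0.767% without input), since the requirement is looser. A p-value of at most 0.01 changed none of these 4 values. Leaving out a UACC-62 replicate gave 5078 to 7746 bins, 624 to 1121 genes, 65.0% to 69.2% in 3′ UTRs and 7.35% to 8.83% without input, as only 1 replicate then had to pass. Reading the strand column literally gave 41 genes and 0.309% in 3′ UTRs, and coding regions before 3′ UTRs gave 72.0%. Genes without an SK-Mel-103 bin made up 10.5% of the 391, and 51.7% if only bins above 30 counted. The median log2 IP over input of 1.76 and 1.68 became 1.91 and 2.38 without division by totals and 1.74 in replicate 3 with a pseudocount of 0.5. Chosen after seeing the data, leaving out the 20 genes with the most members gave 68.4% in 3′ UTRs and medians of 1.43 and 1.30, and leaving out members above 300 input reads in both replicates left 3113 bins with 76.4% in 3′ UTRs. Leaving out the 2 non-coding genes with the most members, also chosen afterwards, lowered the share in exons of non-coding genes from 5.56% to 1.42%. The cause was not tested. No paired analysis was possible because these results come from no test and each IP was set against its own input by the authors. The SK-Mel-103 list holds only bins of at least 4 IP reads, with a floor that depends on the input, and 1 sample of that line gives no replicate error.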
